A study of Mus musculus with 5 samples.

Results

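The genes described here are 9 that encode surface proteins used to sort epithelial progenitors: Prom1, Prom2, Cd24a, Epcam, Cd44, Abcg2, Ly6a, Procr and Kit. They were chosen by name, with earlier results of these data known. All 9 were among the 16992 gene symbols common to the tables of all libraries. RNA was profiled from sorted pancreatic cells of adult C57BL/6 mice, 2 to 4 months old, with no transgene or treatment named. Its 2 populations are CD133(positive)CD71(negative) cells (2 libraries) and CD133(high)CD71(low) cells (3 libraries, a second label field of which reads CD71 plus). Per its title, the series concerns the enrichment of progenitors that form colonies in the CD133(high)CD71(low) fraction.

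CD133, the protein of Prom1, is a cholesterol-binding glycoprotein of plasma membrane protrusions, and in the pancreas antibodies to it label duct and centroacinar cells. CD24, EpCAM and CD44 have been used with it to sort duct cells and putative progenitors, while the other markers come largely from blood and stem cell work: Sca-1, the protein of Ly6a, and c-Kit define blood stem cells, and ABCG2 exports the dye by which side population cells are recognised. Several of these proteins are not confined to epithelium. Sca-1 and the protein C receptor encoded by Procr are also found on endothelial cells, CD44 on leukocytes and c-Kit on mast cells.

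Values are RPKM (read density per kilobase, normalised for sequencing depth), the unit inferred for the deposited values. Depth, estimated from the steps between low values, was 19.8 to 41.7 M reads per library. For the library estimated at 41.7 M, called library 3 below, 74.2 M alignments are recorded. The difference was not resolved. Libraries 1 and 2 of each population carry a number in their titles. The CD133(high)CD71(low) library without one is called library 3, and its table holds other gene models (22522 symbols against 18618). The gene lengths behind its RPKM may thus differ from those of the other libraries, which was not tested. Library 3 stood apart, with a Pearson r across genes of 0.911 and 0.920 to libraries 1 and 2, against 0.994 between those 2. Each comparison was therefore made with all 5 libraries and with the 4 numbered ones. Each change is the CD133(high)CD71(low) mean less the CD133(positive)CD71(negative) mean of log2(RPKM + 1), which understates the change of low genes. They were tested with limma over all genes at an adjusted p under 0.05, and means are given ± SD with n = 2 and n = 3. The labels do not tie libraries to animals or to sorting runs. A p-value here thus covers no more than the spread of these libraries, possibly a technical one.

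With all 5 libraries, 1 of the 9 genes rose in CD133(high)CD71(low) cells, Epcam, and 1 fell, Ly6a. Among all 11769 genes tested, 6.25% rose and 7.22% fell. With the 4 numbered libraries, Prom1, Epcam, Cd24a and Kit passed as higher and Ly6a, Procr, Cd44 and Abcg2 as lower, leaving Prom2 as the member that passed in neither fit. In that fit 40.9% of all genes passed as higher and 12.2% as lower, so 4 of 9 higher is close to the background. The median change of all genes was itself above 0, at 0.31 with 5 libraries and 0.20 with the numbered ones, against 0.06 and 0.04 under median-of-ratios scaling. The median of the 9 members was -0.019 with 5 libraries and -0.011 with the numbered ones. The groups did not overlap for 4 members that were higher (Prom1, Cd24a, Epcam and Kit), or 44.4% of them, against 58.2% of all genes. They did not overlap for 2 that were lower (Ly6a and Procr), or 22.2%, against 12% of all genes. In the numbered libraries they did not overlap for 4 members that were higher, against 62.4% of all genes, and for 4 that were lower, against 16.8%.

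**Figure D1:**
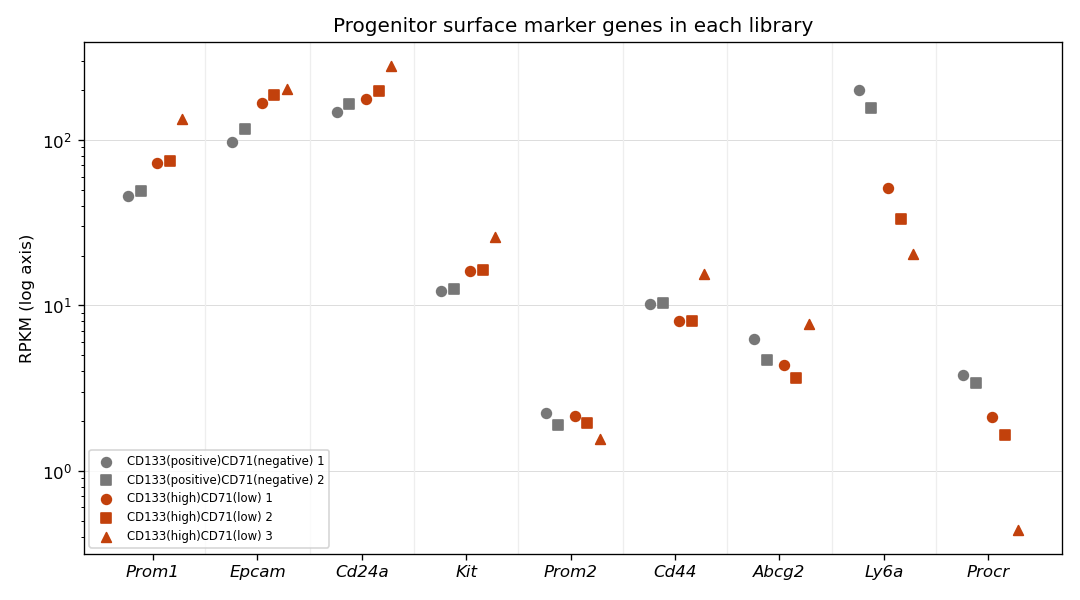
RPKM of the 9 surface marker genes (log axis), 1 symbol per library, grey for CD133(positive)CD71(negative) and orange for CD133(high)CD71(low), with library 3 as a triangle. Prom1, Epcam, Cd24a and Kit lie higher and Ly6a and Procr lower in all CD133(high)CD71(low) libraries, and Cd44 and Abcg2 change sides with library 3.

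Prom1 (chromosome 5, 43993620 to 44102032, mm10, minus strand) encodes CD133, the protein on which both populations were sorted. A difference in its RNA is thus no independent result, and RNA does not measure the surface protein. Its RPKM was 45.8 and 48.8 among CD133(positive)CD71(negative) libraries. In CD133(high)CD71(low) it measured 72.8, 74.7 and 133.3. The groups did not overlap, and library 3 was the highest by far. Prom1 was thus among the more abundant genes of both populations, within the top 3.84% of genes in every library. It was higher by 0.91 on the log2 scale (SE 0.29, limma adjusted p = 0.0909) with 5 libraries. With the numbered libraries it was 0.63 (SE 0.08, limma adjusted p = 0.000208), a 1.55-fold difference, and it also passed there under median-of-ratios scaling (log2 fold change 0.44, limma adjusted p = 0.0017). Of the exonic bases of Prom1, 5.91% overlap the antisense gene Gm16401, and no source used here states that counting used strand. The transferrin receptor gene Tfrc, which encodes the other sorting marker CD71, measured 4.00 and 4.36 against 5.34, 6.84 and 12.2.

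Epcam (chromosome 17, 87635979 to 87651129, plus strand) encodes a homophilic adhesion molecule carried by most simple epithelia. Its RPKM was 96.7 and 116.6 among CD133(positive)CD71(negative) libraries. In CD133(high)CD71(low) it measured 167.2, 187.7 and 201.6. The groups did not overlap, and library 3 stood close to the other 2, unlike for Prom1. Epcam rose from a mean of 106.6 ± 14.1 to 185.5 ± 17.3, by 0.80 on the log2 scale (SE 0.15, limma adjusted p = 0.0285). It passed with the numbered libraries (0.73, limma adjusted p = 0.000447), also under median-of-ratios scaling (0.54, limma adjusted p = 0.00319). With 5 libraries and median-of-ratios scaling it did not (0.50, limma adjusted p = 0.0791), nor without CD133(high)CD71(low) library 1 or 2 (limma adjusted p = 0.0708 and 0.111).

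The sequences before a start site of these 2 genes are shown because both were higher in CD133(high)CD71(low) cells, beside those of Cd44 and Abcg2, which passed as lower in the numbered libraries. Each is the 250 bases before a RefSeq start (GRCm38.p6), from which windows that reach into annotated exons of the gene were left out. Capitals mark GC boxes, the letters GGGCGG on either strand. Cd24a and Ly6a had no entry.
Prom1, chr5:44094769-44095018, minus strand: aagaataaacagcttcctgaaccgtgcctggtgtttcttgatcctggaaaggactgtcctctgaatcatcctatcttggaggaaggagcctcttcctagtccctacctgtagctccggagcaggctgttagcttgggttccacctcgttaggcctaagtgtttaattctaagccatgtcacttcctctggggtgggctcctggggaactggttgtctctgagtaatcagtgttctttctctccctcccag
Epcam, chr17:87635729-87635978, plus strand: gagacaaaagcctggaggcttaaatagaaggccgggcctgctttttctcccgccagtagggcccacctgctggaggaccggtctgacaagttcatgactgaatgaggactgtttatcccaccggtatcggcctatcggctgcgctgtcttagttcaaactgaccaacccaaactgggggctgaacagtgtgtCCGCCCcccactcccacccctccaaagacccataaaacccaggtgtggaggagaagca
Cd44, chr2:102901666-102901915, minus strand: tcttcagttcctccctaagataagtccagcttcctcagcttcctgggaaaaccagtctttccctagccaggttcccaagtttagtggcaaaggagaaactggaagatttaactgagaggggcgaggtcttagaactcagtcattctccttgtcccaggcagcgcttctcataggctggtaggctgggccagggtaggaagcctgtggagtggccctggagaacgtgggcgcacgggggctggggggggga
Abcg2, chr6:58640296-58640545, plus strand: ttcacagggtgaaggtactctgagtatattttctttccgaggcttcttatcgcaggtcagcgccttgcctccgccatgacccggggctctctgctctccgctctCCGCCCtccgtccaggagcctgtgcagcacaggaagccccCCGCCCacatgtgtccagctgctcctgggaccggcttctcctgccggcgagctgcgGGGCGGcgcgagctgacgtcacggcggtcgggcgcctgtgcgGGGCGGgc
The Prom1 and Abcg2 windows lie inside the annotated spans of their genes, outside exons, and are thus intron sequence by that annotation. Whether any of these windows acts as a promoter was not tested. Those of Epcam and Cd44 lie directly before the span, so the 4 windows are not like for like. The Abcg2 window held 4 GC boxes and 23 CG pairs at 67.6% G and C. That of Epcam held 1 box and 8 CG pairs, and those of Prom1 and Cd44 held 0 boxes, with 3 and 5 CG pairs. Of all 32851 windows of the same length, 32.7% held a GC box. The TATA box letters TATAAA, also searched on both strands, were in 0 of these 4 windows and in 12.4% of all. The counts differed between starts of a gene. A second Prom1 start, farther upstream and near the 5' end of the gene, had 1 box and 9 CG pairs in its window. That window was left out because all its 250 bases lie in annotated exons. The 2 other Abcg2 starts had 0 and 2 boxes with 3 and 10 CG pairs. A value per symbol does not tell starts apart.

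Cd24a (chromosome 10, 43578284 to 43584265) encodes a small mucin-like protein held by a lipid anchor. Its values were 146.6 and 165.7 in CD133(positive)CD71(negative) and 177.7, 197.7 and 280.9 in CD133(high)CD71(low) libraries. It was the most abundant member in all CD133(high)CD71(low) libraries, and the groups did not overlap. The log2 fold change was 0.46 (95% confidence interval -0.11 to 1.03, limma adjusted p = 0.19). With the numbered libraries it was 0.26 (limma adjusted p = 0.0352), near the median of all genes, and under median-of-ratios scaling 0.07 (limma adjusted p = 0.547). Of the 50-base windows of its transcripts, 2.75% also occur in the gene Gm6212.

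Prom2 (chromosome 2, 127526473 to 127541467) encodes prominin-2, the paralog of CD133 in epithelial membrane protrusions. It measured 2.24 and 1.90 in CD133(positive)CD71(negative) and 2.14, 1.96 and 1.55 in CD133(high)CD71(low) libraries. The groups overlapped, and the gene stayed near 2 RPKM throughout. It changed by -0.097 on the log2 scale (95% confidence interval -0.46 to 0.26, limma adjusted p = 0.598), and by -0.011 with the numbered libraries (interval -0.25 to 0.23, limma adjusted p = 0.939). Prom1 exceeded it per length by 20.40 and 25.66 times in CD133(positive)CD71(negative) and by 34.04, 38.21 and 86.11 times in CD133(high)CD71(low) libraries.

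**Figure D2:**
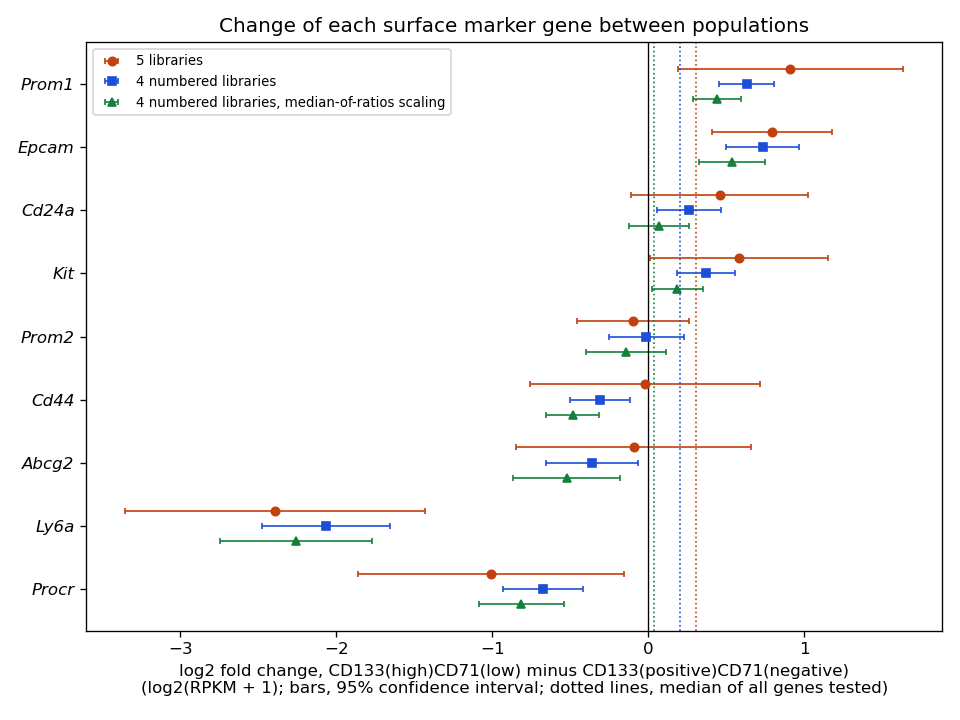
Log2 fold change of each member, from CD133(positive)CD71(negative) to CD133(high)CD71(low) in log2(RPKM + 1), in 3 fits, with bars for 95% confidence intervals and dotted lines for the median of all genes in each fit. Ly6a lies lowest in all 3 fits, at -2.39, -2.06 and -2.26, and Prom1 and Epcam are the members highest in each.

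Ratios within a library do not depend on its scaling, but they do depend on gene lengths, which may differ for library 3. These were chosen after the values were seen, and with 2 against 3 libraries an exact two-sided rank-sum test cannot go below p = 0.2, so none was tested. Prom1 over Epcam was 0.473 and 0.419 in CD133(positive)CD71(negative) and 0.435, 0.398 and 0.661 in CD133(high)CD71(low) libraries. In the numbered libraries the 2 groups overlapped, so Prom1 differed there by about as much as Epcam did, and library 3 alone was higher. Over Krt19, a keratin gene of duct cells, Prom1 was 0.613 and 0.600 against 0.467, 0.526 and 0.893. Cd24a over Epcam was 1.52 and 1.42 against 1.06, 1.05 and 1.39, lower in every CD133(high)CD71(low) library. When all genes were scaled to the summed RPKM of 20 duct markers, the changes were 0.26 for Prom1 (limma adjusted p = 0.302), 0.14 for Epcam (0.608), -0.20 for Cd24a (0.414) and -0.038 for Kit (0.82). This scaling lowered genes in general, with a median change of all genes of -0.25, below each of these values. The duct sum itself was 3648 and 3889 against 5315, 5293 and 7492, and 14 of its 20 genes rose (6.25% of all genes did). Spp1, which was not among them, made up 54.5% to 64.7% of this sum. Without Spp1 the sum was 1362 and 1464 against 2420, 2330 and 2646, and scaling to it put Prom1 at 0.12 (limma adjusted p = 0.709) and Epcam at -0.00081 (0.997). The median change of all genes was -0.38 in that fit. Prom1 over that sum was 0.0336 and 0.0333 against 0.0301, 0.0321 and 0.0504, lower in the numbered CD133(high)CD71(low) libraries and higher in library 3. Whether the higher levels of Prom1 and Epcam follow the duct markers was not tested beyond these scalings, and in bulk samples more cells of a type and more RNA per cell cannot be told apart.

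**Figure D3:**
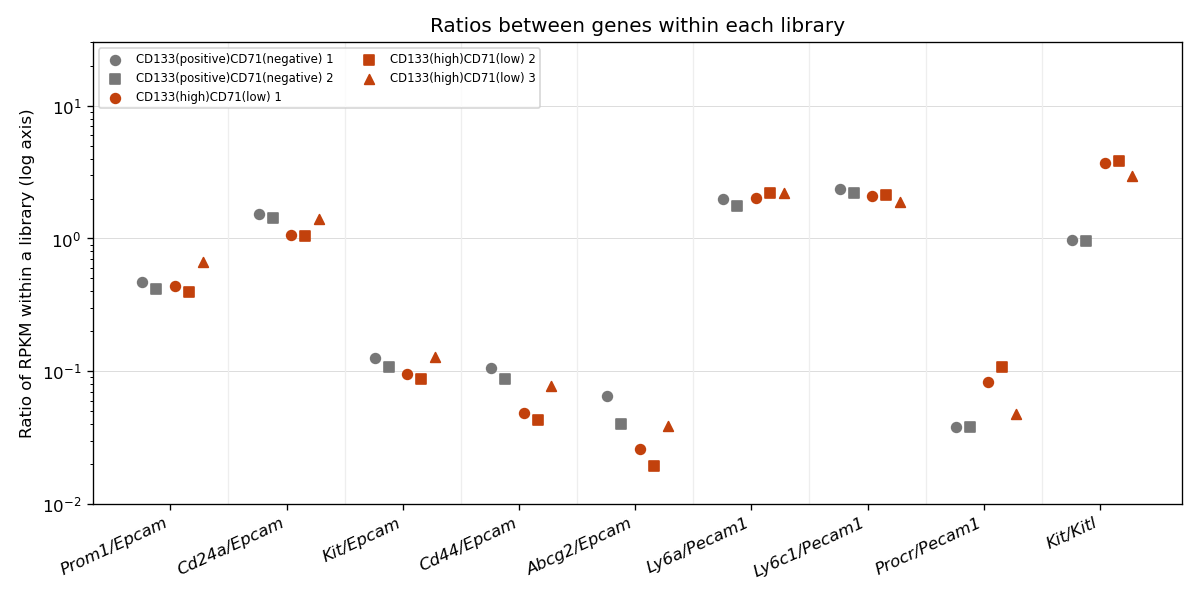
Ratios of RPKM between pairs of genes within each library (log axis), grey for CD133(positive)CD71(negative) and orange for CD133(high)CD71(low). Prom1 over Epcam overlaps between the groups, Ly6a over Pecam1 lies between 1.75 and 2.22 in all libraries, and Kit over Kitl lies near 1 in CD133(positive)CD71(negative) and from 2.96 to 3.86 in CD133(high)CD71(low).

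Kit (chromosome 5, 75574916 to 75656722) encodes the receptor tyrosine kinase for stem cell factor, the product of Kitl. Kit measured 12.13 and 12.48 in CD133(positive)CD71(negative) and 16.01, 16.35 and 25.79 in CD133(high)CD71(low) libraries. The groups did not overlap, and library 3 was again the highest. Kit was higher by 0.58 on the log2 scale (SE 0.23, limma adjusted p = 0.132), and 0.37 (SE 0.08, limma adjusted p = 0.00566) with the numbered libraries. Under median-of-ratios scaling of these it was 0.19 and did not pass (limma adjusted p = 0.0787). Its ligand gene moved the other way: Kitl measured 12.5 and 13.0 against 4.35, 4.23 and 8.71 (log2 fold change -1.09, limma adjusted p = 0.0702). Kitl passed as lower with the numbered libraries (-1.38, limma adjusted p = 2.3e-06). Kit over Kitl was 0.969 and 0.961 against 3.68, 3.86 and 2.96. Mast cells also carry c-Kit, and the 8 mast cell markers in all tables (of 10 listed) summed to 5.17 and 5.22 in CD133(positive)CD71(negative) and to 0.11, 0.42 and 0.40 in CD133(high)CD71(low) libraries. In the latter 4 to 6 of these 8 were at 0, the chymase gene Cma1 in all 3. Early erythroid cells carry c-Kit as well, and the 7 erythroid markers in all tables (of 10 listed) summed to 11.9 and 12.1 against 122.8, 118.3 and 32.5, with 3 of 4 tested rising. The part of mast cells or of erythroid cells in the level of Kit was not tested.

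Cd44 (chromosome 2, 102811141 to 102901665) encodes the main hyaluronan receptor, whose spliced forms a value per symbol cannot separate. It measured 10.2 and 10.3 in CD133(positive)CD71(negative) and 8.08, 8.02 and 15.5 in CD133(high)CD71(low) libraries. The numbered CD133(high)CD71(low) libraries lay below both CD133(positive)CD71(negative) libraries and library 3 above them. Its log2 fold change was -0.019 (95% confidence interval -0.76 to 0.72, limma adjusted p = 0.961) with 5 libraries and -0.31 (limma adjusted p = 0.0139) with the numbered ones. Abcg2 (chromosome 6, 58584523 to 58695676), the gene of the efflux pump, behaved alike: 6.27 and 4.67 against 4.36, 3.65 and 7.73. For Abcg2 the log2 fold change was -0.093 (interval -0.85 to 0.66, limma adjusted p = 0.808), and -0.36 (limma adjusted p = 0.0416) with the numbered libraries. For both genes the direction over 5 libraries rested on single libraries. Without CD133(high)CD71(low) library 1 or 2 Cd44 was at 0.12 or 0.13, and without CD133(positive)CD71(negative) library 1 or CD133(high)CD71(low) library 2 Abcg2 was at 0.085 or 0.092.

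Ly6a (chromosome 15, 74994877 to 74998031) encodes Sca-1, a small protein held by a lipid anchor. Among CD133(positive)CD71(negative) libraries it stood at 199.2 and 155.1 RPKM, where it ranked within the top 1.09% of genes. In CD133(high)CD71(low) it measured 51.5, 33.0 and 20.3. The groups lay far apart, and the lowest value was that of library 3. Ly6a fell from a mean of 177.1 ± 31.2 to 35.0 ± 15.7, which is 5.06-fold lower. On the log2 scale it fell by 2.39 (SE 0.38, limma adjusted p = 0.0168). It also passed with the numbered libraries (-2.06, limma adjusted p = 2e-05) and under median-of-ratios scaling (-2.68, limma adjusted p = 0.0242). Without CD133(high)CD71(low) library 2 it did not (limma adjusted p = 0.0595), nor without a CD133(positive)CD71(negative) library. Of the 50-base windows of its transcripts, 19.0% also occur in other genes, 15.0% in its neighbour Ly6c1, 2.39% in Ly6i and 1.54% in I830127L07Rik. Its value is uncertain for that reason, by an amount not measured here.

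Procr (chromosome 2, 155751117 to 155755471) encodes the protein C receptor. It measured 3.78 and 3.39 in CD133(positive)CD71(negative) and 2.12, 1.64 and 0.437 in CD133(high)CD71(low) libraries. All CD133(high)CD71(low) libraries were lower, and library 3 was the lowest. The log2 fold change was -1.01 (SE 0.34, limma adjusted p = 0.103), and -0.68 (SE 0.11, limma adjusted p = 0.00134) with the numbered libraries. Thbd, whose product thrombomodulin works with this receptor in activating protein C, fell by 2.71 on the log2 scale, from 25.2 ± 1.27 to 3.24 ± 1.73 (limma adjusted p = 0.00908).

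Endothelial and leukocyte markers were lower in the same libraries as Ly6a and Procr. The 18 endothelial markers summed to 1061 and 991.0 in CD133(positive)CD71(negative) and to 313.8, 205.2 and 142.2 in CD133(high)CD71(low) libraries, and 17 of 18 fell. The 20 leukocyte markers summed to 1968 and 1929 against 94.5, 81.4 and 50.2, and 18 of 19 tested fell. Among all genes tested 7.22% fell. None of either list was at 0. Set against Pecam1, an endothelial adhesion gene, Ly6a had ratios of 2.00 and 1.75 in CD133(positive)CD71(negative) and 2.02, 2.19 and 2.22 in CD133(high)CD71(low) libraries, slightly higher in the latter. Procr over Pecam1 was 0.038 and 0.038 against 0.083, 0.108 and 0.048, higher in every CD133(high)CD71(low) library, so Procr was lowered by less than Pecam1. The part of endothelial cells and leukocytes in these results was not tested. The 16 mesenchymal markers summed to 432.8 and 413.7 against 209.1, 188.9 and 200.1, and 21 acinar genes took 57.6% and 54.3% of RPKM against 50.8%, 51.1% and 28.2%. Library 3, with the lowest acinar share, had the highest values of Prom1, Cd24a, Kit, Cd44, Abcg2 and, by little, Epcam, and the lowest of Prom2, Ly6a and Procr. The part of the acinar share in these values was not tested. With the acinar genes removed and the rest rescaled, the limma log2 fold changes were 0.70 for Prom1 (adjusted p = 0.0836), 0.58 for Epcam (0.0722), 0.38 for Kit (0.142) and 0.24 for Cd24a (0.387). They were -0.24 for Prom2 (0.418), -0.22 for Cd44 (0.493), -0.28 for Abcg2 (0.439) and -1.13 for Procr (0.117), and Ly6a passed at -2.61 (0.0249).

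For each member the genes with the most similar profile over the 5 libraries were sought among 7838 others with a mean of at least 5 RPKM (7839 for Prom2 and Procr, whose own means lie below 5). The measure was the root mean square difference of log2(RPKM + 1) after centring each gene, and these points share libraries and depth. Nearest to Ly6a were Robo4 (0.059), Ramp2 (0.064) and Clec14a (0.065). Nearest to Epcam were F3 (0.035), Ptgr1 (0.045) and Ambp (0.048). Prom1 lay nearest to the integrin gene Itgb6 (0.039), which measured 3.30 and 3.93 against 5.97, 6.39 and 11.6. Kit was nearest to Uba2 (0.019), Cd24a to Acp2 (0.017), Cd44 to Arhgap29 (0.034), Prom2 to Rfng (0.035), Abcg2 to Oasl2 (0.09) and Procr to Aqp1 (0.123). These distances are not scaled to the size of a gene's change, so they are not compared between members.

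Of 30 other surface proteins used to sort progenitors, 24 were tested, of which 2 rose and 8 fell (median 0.22, against 0.31 for all genes). Among all genes tested 6.25% rose and 7.22% fell. With the numbered libraries 9 of these 24 passed as higher and 9 as lower, against 40.9% and 12.2% of all genes. F3, encoding tissue factor, rose from 18.6 ± 2.75 to 33.9 ± 2.30 (limma adjusted p = 0.0187). The lipopolysaccharide co-receptor gene Cd14 rose from 20.4 ± 1.41 to 36.1 ± 1.31 (limma adjusted p = 0.0114). Several of those that fell are also carried by blood vessels or leukocytes. Cd34, encoding a sialomucin of blood stem cells and endothelium, fell by 2.59 on the log2 scale, from 22.2 ± 1.43 to 3.03 ± 1.42 (limma adjusted p = 0.00715). Cxcr4, encoding a chemokine receptor, fell from 15.4 ± 0.838 to 2.46 ± 1.21, the ectoenzyme gene Cd38 from 4.86 ± 0.441 to 0.953 ± 0.319 and the adhesion gene Mcam from 32.3 ± 2.85 to 9.62 ± 2.64. The other 4 that fell were Eng, Pecam1, Thy1 and Cd200. The 2 most abundant, the tetraspanin genes Cd81 (171 ± 7.29 and 202 ± 26.6, limma adjusted p = 0.301) and Cd9 (115 ± 1.30 and 150 ± 15.8, limma adjusted p = 0.119), did not pass. Lgr5, a receptor gene that marks intestinal stem cells, was at or below 0.058 RPKM in every library and was not tested.

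**Figure D4:**
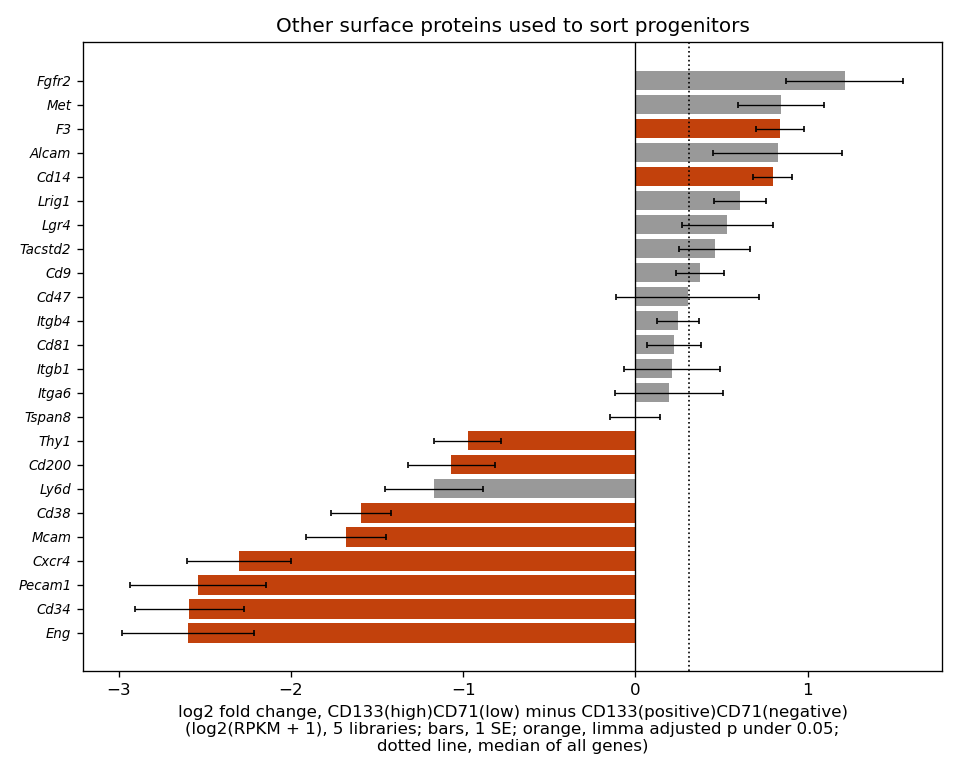
Log2 fold change with SE of the 24 tested surface marker genes outside the 9 members, 5 libraries, with orange for a limma adjusted p under 0.05 and a dotted line at the median of all genes (0.31). Of these 2 rose (F3 and Cd14) and 8 fell, against 6.25% and 7.22% of all genes.

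Among 31 genes for partners and ligands of the members, 25 were tested. Of these 7 rose and 4 fell, against 6.25% and 7.22% of all genes. With the numbered libraries 14 passed as higher and 8 as lower, against 40.9% and 12.2% of all genes. Those that rose included partners of EpCAM. The claudin gene Cldn7, whose product binds EpCAM, rose from 53.7 ± 0.709 to 93.9 ± 8.43 (limma adjusted p = 0.0168) and Cldn3 from 168 ± 23.0 to 282 ± 21.0 (limma adjusted p = 0.0346). Spint2, whose product inhibits membrane serine proteases, rose from 149 ± 11.8 to 228 ± 3.12 (limma adjusted p = 0.0344). Among the linkers of CD44 to actin, Ezr, encoding ezrin, rose from 46.5 ± 4.92 to 81.9 ± 1.97 (limma adjusted p = 0.0138), and Msn, encoding moesin, fell by 1.84 on the log2 scale, from 43.2 ± 2.02 to 11.4 ± 1.92 (limma adjusted p = 0.00258). Rdx, encoding the related radixin, measured 25.25 and 25.72 against 20.06, 20.62 and 32.19 and did not pass (limma adjusted p = 0.728), and it passed as lower with the numbered libraries (limma adjusted p = 0.0107). Esrp1, a splicing regulator that acts on Cd44 transcripts, rose from 10.8 ± 0.288 to 17.8 ± 2.15 (limma adjusted p = 0.0339). The tetraspanin-like gene Tm4sf1 fell from 63.9 ± 5.85 to 18.2 ± 3.86 (limma adjusted p = 0.00485) and the drug pump gene Abcb1a from 5.52 ± 0.263 to 2.78 ± 0.471 (limma adjusted p = 0.0266). Gab1 and Spint1 were the other 2 that rose. Spp1, encoding the CD44 ligand osteopontin and the most abundant of the list, measured 2286 and 2425 against 2895, 2963 and 4846 (limma adjusted p = 0.227).

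A list of 22 Ly6 family genes, not the whole family, had 16 in all tables and 9 tested, of which 1 rose and 3 fell. Among all genes tested 6.25% rose and 7.22% fell. With the numbered libraries 3 of these 9 passed as higher, Ly6e among them, and 5 as lower, against 40.9% and 12.2% of all genes. Ly6c1, the neighbour of Ly6a, measured 236.2 and 196.0 against 53.7, 32.1 and 17.3 and fell (log2 fold change -2.75, limma adjusted p = 0.0178). It shares 32.8% of its 50-base windows with other genes. Gpihbp1, which binds lipoprotein lipase on capillary endothelium, fell from 27.1 ± 2.10 to 4.54 ± 3.07 (limma adjusted p = 0.0415). Ly6g6e rose at a low level, from 1.72 ± 0.491 to 3.62 ± 0.121 (limma adjusted p = 0.0293). Ly6e was the most abundant, at 483.6 and 464.2 against 655.0, 602.4 and 592.2. It did not pass with 5 libraries (log2 fold change 0.38, limma adjusted p = 0.131). Its values lay above both CD133(positive)CD71(negative) libraries in every CD133(high)CD71(low) library, as did those of 58.2% of all genes tested.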

How the data were processed

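Each library came as a table the authors deposited, with a value for every gene symbol. Partek and mm10 are named, per the submitters' processing notes; its version, the aligner, annotation and unit are in none of the sources used here. The deposited values were taken as RPKM: low values multiplied by transcript length (genes with 1 GENCODE M21 transcript) lay within 0.05 reads of a whole number in 54.2% to 58.4% of cases at one depth per library. FPKM would look the same, and too few values were whole for a count test. A row of library 3 that names no gene (74.2 M alignments) was left out.

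Groups were taken from sample titles. No library was a duplicate: the variance between libraries was 3.34 and 3.03 times that of sampling reads within the numbered pairs, and 28.9 and 21.9 times for library 3. The other gene models of library 3 may add to its variance, by an amount not measured. Genes with a mean of at least 1 RPKM were tested as log2(RPKM + 1) with limma 3.58.1 in R 4.3.3 (mean-variance trend, group as sole term, Benjamini-Hochberg), checked on simulated data. The simulation gave all libraries the same spread for a gene, so it does not cover the way library 3 stands apart. The members and lists were chosen with earlier results of these data known, so lists are described by counts and medians. Named genes were the members, Tfrc, up to 4 genes of each list with the smallest adjusted p in each direction, its 2 highest by mean, and the 3 nearest profiles of each member. Not all are printed. A few were named after their values were seen: Krt19, Pecam1, Cma1, Kitl and Lgr5. Alternatives were a pseudocount of 0.1, other filters, median-of-ratios scaling (genes above 0 in all libraries), quantile normalization, rescaling without acinar genes or to duct markers (with and without Spp1), no trend, leaving out single libraries and a block on the replicate number. List counts in the numbered libraries, the ratios and the scaling without Spp1 were added after seeing the data. Positions are from GENCODE M21 and sequences from RefSeq (GRCm38.p6), where 7 of 9 members matched. Tables and figures were made in Python 3.11.15 with pandas 2.3.3, numpy 2.4.6 and matplotlib 3.10.9.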

Additional observations from a re-analysis of the deposited data

How the results depend on the processing

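The calls moved with the libraries used, the scaling and the filter. Against 735 genes higher and 850 lower with 5 libraries, median-of-ratios scaling gave 307 higher and 1066 lower (22.4% of calls higher in place of 46.4%), removal of acinar genes 488 higher (33.1% of calls), and scaling to duct markers 25 higher and 1882 lower (1.31% of calls). The same scaling without Spp1, added after seeing the data, gave 27 higher and 4949 lower (0.543% of calls), and 0 members higher and 3 lower (Ly6a, Procr and Prom2). Without a filter 1729 genes were lower, and with a mean of at least 5 RPKM 315. With each library left out in turn, 0 to 4785 genes were higher and 154 to 1425 lower, the most without library 3, where 77.1% of calls were higher. Median-of-ratios scaling of the numbered libraries gave 1779 higher and 1909 lower.

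Of the members, 0 were higher under median-of-ratios scaling, quantile normalization, removal of acinar genes and scaling to duct markers, where 1 (Ly6a) stayed lower. With each library left out, 0 to 4 were higher and 0 to 4 lower. Median-of-ratios scaling of the numbered libraries gave 2 higher and 4 lower. The log2 fold change of Prom1 ranged from 0.63 to 1.06 with a library left out and was 0.44 in that last fit. Scaling to duct markers put Cd24a at -0.20 and Kit at -0.038, and without Spp1 Cd24a at -0.34, Kit at -0.17 and Epcam at -0.00081. The median change of all genes was -0.25 with Spp1 in the scaling and -0.38 without it. With a library left out, Cd44 ranged from -0.31 to 0.13 (above 0 at 0.12 and 0.13 without CD133(high)CD71(low) library 1 or 2) and Abcg2 from -0.36 to 0.092 (above 0 at 0.085 and 0.092 without CD133(positive)CD71(negative) library 1 or CD133(high)CD71(low) library 2). The cause was not tested. Without a CD133(positive)CD71(negative) library, 1 sample stands for the group, assumed to vary like the others, and no member passed.

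Library 3 has no number, so the replicate block covered the numbered libraries. In that fit 5275 genes (45.1%) were higher and 1543 (13.2%) lower, and 4 members were higher and 4 lower. Prom1 was at 0.63, and the members were called as in the same libraries without the block. The numbers do not pair the samples by any label, and the deviations of same-numbered libraries had a correlation of -0.02.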
